A study of Mus musculus with 6 samples.

Results

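The annexins and S100 proteins are 2 families of calcium-binding proteins, and 10 of their genes were followed in mouse hepatocytes that received Sox4: Anxa1, Anxa2, Anxa3, Anxa5, Anxa6, Anxa7, S100a1, S100a6, S100a10 and S100a11. They were chosen by gene symbol out of the 53599 symbols of the count table, with earlier results of these data known. All 10 were present in the table. RNA was sequenced from purified hepatocytes 4 days after the mice had received either of 2 vectors. The Sox4 group (3 libraries) had AAV8-TBG-HA-Sox4-P2A-Cre and the EV group, for empty vector (3 libraries), had AAV8-TBG-Cre. AAV8 is an adeno-associated viral vector with a preference for liver, TBG is a promoter active in hepatocytes, HA is a peptide tag, and Cre recombinase was therefore made in both groups. The labels give the genotype of the EV mice as WT and that of the Sox4 mice as Sox4. The methods name Rosa-LSL-Cas9-EGFP mice on a C57BL/6J background, in which Cre switches on Cas9 and EGFP, injected at 4 to 8 weeks of age, with 1e12 genome copies of the Sox4 vector per mouse for the RNA-Seq. The dose of EV in this experiment is not given in the sources used here. The labels do not tie libraries to mice, but the study counts its RNA-Seq replicates as animals.

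Annexins share a core that binds acidic membrane lipids when calcium is present, and they act in membrane repair, vesicle traffic and the anchoring of actin to membranes. S100 proteins are small EF-hand dimers that, on binding calcium, expose a surface for partner proteins, and several of those partners are annexins. S100a10 differs in that it is held in an active shape without calcium and joins Anxa2 in a complex of both proteins. S100a11 is known to bind Anxa1. In normal liver Anxa2, S100a6 and S100a11 are known more from bile duct and mesenchymal cells than from hepatocytes.

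Of the 10 genes, 3 rose, 2 fell, 2 were tested and did not pass, and 3 had too few counts to be tested. S100a11, Anxa2 and Anxa5 were higher in Sox4, by 22.4-fold, 7.99-fold and 3.35-fold. S100a1 was 4.91-fold lower and Anxa6 1.47-fold lower. Anxa7 and S100a10 did not pass, and no library held more than 16 counts of Anxa1, Anxa3 or S100a6. These calls are from the edgeR quasi-likelihood test at a Benjamini-Hochberg adjusted p under 0.05, which called 55.1% of the 12691 genes tested, 29.0% as higher and 26.0% as lower. The 5 of 7 members called are therefore not a result about the families. The CPM ranges of the groups were apart in 6 of the 7, 3 above and 3 below in Sox4, beside 63.0% of all genes tested (33.1% above and 29.9% below). The median log2 fold change of the 7 tested members was -0.01, beside 0.04 for all genes tested.

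Total counts were 15090629 to 16964860 per library, so depth was much alike. Sox4 itself had 0 to 3 counts in the EV libraries and 11816 to 21697 in the Sox4 libraries, as the labels say (adjusted p = 2.61e-07). Levels are in CPM, counts scaled to a library of 1e06 with library sizes adjusted by the trimmed mean of M-values (TMM). The standard error (SE) beside a log2 fold change comes from the spread of log2 CPM within the groups. The direction of small changes depended on this scaling. With library size alone the median log2 fold change of all genes was 0.51 and 79.9% of the calls were higher, in place of 52.7%, so changes of about this size or less are read on both scales below. The 5 hepatocyte markers found in the table (Alb, Apoa1, Ttr, Serpina1c and Fgb) were abundant in every library. Their summed level lay between 101000 and 125000 CPM for EV, against 72600 to 82400 for Sox4, most of it from Alb. All but Ttr passed the test as lower with TMM, beside 26.0% of all genes tested. With library size alone only Apoa1 and Serpina1c passed as lower, while Alb was at -0.11 (adjusted p = 0.627) and Fgb at -0.26 (adjusted p = 0.178).

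The sequence before the start of the gene was printed for Anxa2 and S100a11, picked after the search described below had found AP-1 letters in both. A gap beside S100a1 was added for the reason given below. RefSeq (GRCm38.p6, a different build from the GRCm39 of the counts) gave a promoter window, 250 bases before to 50 after the start, for 7 of the 10 members, in 8 windows. Anxa3, Anxa6 and S100a10 had no window and were not searched. Letters were searched on both strands for SOX (ACAANG), TEAD (GGAATG) and AP-1 (TGANTCA, the same on both strands). The AP-1 letters were found in 7.81% of 32851 such windows. Among the members they were in Anxa2 (1 match, starting 95 bases before the RefSeq start) and S100a11 (2 matches, starting 136 and 38 bases before it). The stretches printed for these genes end short of the RefSeq start, where the first exon annotated in GENCODE M21 begins. The SOX letters, found in 41.2% of all windows, were in none of the 8, and the TEAD letters, found in 14.7%, were in that of Anxa1. The windows of Anxa5, which also rose, and of Anxa7, S100a1 and S100a6 held none of these letters. The stretches upstream of any annotated exon follow, 5′ to 3′ on the strand of the gene, with AP-1 letters in capitals, for Anxa2 (chr9:69453433-69453619, plus strand) and S100a11 (chr3:93520246-93520487, plus strand). The last is the gap between the starts of S100a1 and its neighbour S100a13 (chr3:90514393-90514434, on the minus strand of S100a1), shown because these genes point away from each other and fell together. A match is a description of letters and no measure of binding.
Anxa2: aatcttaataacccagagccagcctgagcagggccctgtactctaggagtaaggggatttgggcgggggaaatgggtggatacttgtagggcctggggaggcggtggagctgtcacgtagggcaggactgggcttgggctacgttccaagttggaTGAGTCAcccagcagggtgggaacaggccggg
S100a11: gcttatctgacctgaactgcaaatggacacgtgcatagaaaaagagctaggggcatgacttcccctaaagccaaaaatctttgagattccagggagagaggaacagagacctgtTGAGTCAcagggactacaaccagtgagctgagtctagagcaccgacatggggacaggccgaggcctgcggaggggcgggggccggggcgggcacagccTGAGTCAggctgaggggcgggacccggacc
S100a1 to S100a13: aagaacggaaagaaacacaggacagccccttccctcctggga

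Among the annexins, Anxa5, a cytosolic protein that binds phosphatidylserine and is used as a probe of dying cells, had the highest counts after Sox4. Counts were 1087, 1126 and 1189 for EV 1 to 3, against 5164, 5966 and 5789 for Sox4 1 to 3. The groups lay far apart, and the EV libraries were close together. In CPM the mean rose from 85.2 ± 1.32 in EV to 286 ± 23.9 in Sox4 (SD, n = 3), or by 1.74 on the log2 scale (adjusted p = 3.35e-06, SE 0.07). Its value was between 1.70 and 2.21 under the alternatives, with library size alone the highest.

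Anxa2, which links actin to membranes and carries S100a10, was scarce in EV 1 to 3 with 9, 28 and 19 counts. Sox4 1 to 3 held 146, 178 and 342 counts of it. Every Sox4 library was above every EV library, although Sox4 3 stood well above the other two and EV 1 below its group. Mean CPM was 1.40 ± 0.716 in EV against 11.2 ± 5.34 in Sox4, the 7.99-fold rise given above (adjusted p = 4.93e-04, SE of the log2 value 0.56). Without Sox4 replicate 3 its log2 fold change was 2.55 and without EV replicate 2 it was 3.41, and it passed in both. Annotation places Anxa2 on chromosome 9, and a gene on the opposite strand, Gm16144, covers 2.63% of its exon bases.

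**Figure D1:**
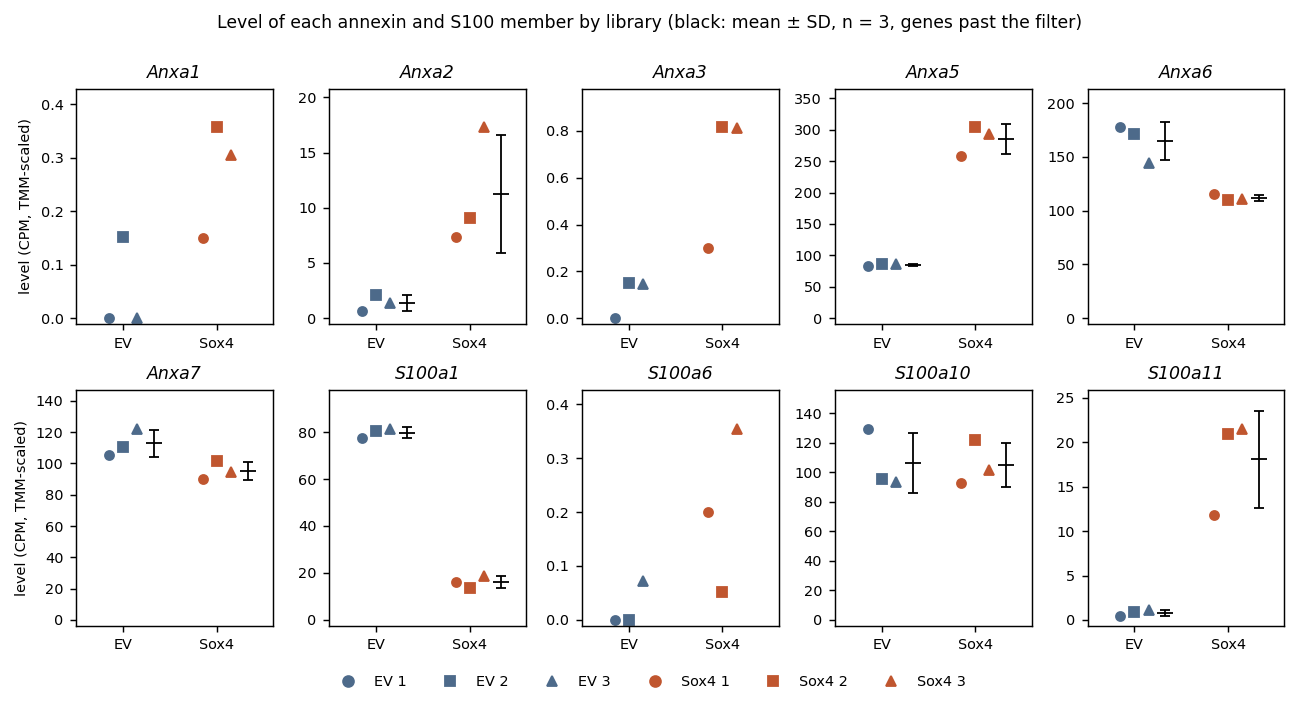
Level in CPM (linear axes that include 0 and differ between genes, TMM-scaled) of each of the 10 genes in the 3 EV (blue) and 3 Sox4 (orange) libraries, marked by replicate, with mean ± SD in black for the 7 genes past the filter. Anxa2, Anxa5 and S100a11 lie higher and S100a1 lower in every Sox4 library, S100a10 overlaps, and Anxa1, Anxa3 and S100a6 stay under 1 CPM.

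Anxa6, an annexin with a doubled core that acts in endocytosis and cholesterol traffic, was the most abundant annexin in EV. Its level was 178, 171 and 144 CPM in EV 1 to 3 and 115, 110 and 111 CPM in Sox4 1 to 3. The groups did not overlap, with EV 3 nearest to Sox4. On the log2 scale Anxa6 fell by 0.55, with an SE of 0.10 (adjusted p = 0.00302). The counts themselves were alike, 1986 to 2309 in EV and 2157 to 2303 in Sox4, and with library size alone the value was -0.08 (adjusted p = 0.555). The fall of Anxa6 is thus a fall relative to the TMM scale.

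Anxa7, an annexin linked to calcium-dependent exocytosis, was at 105, 111 and 122 CPM in EV 1 to 3 and at 90.3, 102 and 94.4 CPM in Sox4 1 to 3. The groups just failed to touch, and the log2 fold change was -0.24 (SE 0.08, adjusted p = 0.0885). With library size alone it was 0.23, so no direction can be given for Anxa7.

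Anxa1, whose secreted form acts on formyl peptide receptors to limit inflammation, was near 0, with 0, 2 and 0 counts for EV 1 to 3 against 3, 7 and 6 for Sox4 1 to 3. Anxa3, an annexin of neutrophil granules, had 0, 2 and 2 counts in EV and 6, 16 and 16 in Sox4. Anxa3 was above EV in every Sox4 library, while for Anxa1 the level of EV 2 (0.152 CPM) was just above that of Sox4 1, so the groups overlapped. At these levels a few reads decide the order. Scaled by library, summed counts were 5.39 times as high in Sox4 for Anxa1 (95% exact binomial interval 1.27 to 48.3) and 6.40 times as high for Anxa3 (2.30 to 24.7), and these intervals cover counting error only. With no filter Anxa3 passed the edgeR test (adjusted p = 0.0148) and Anxa1 did not (adjusted p = 0.185).

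Among the S100 genes, S100a11, which binds Anxa1 and acts in membrane repair and growth control, changed most. In EV 1 to 3 it held 5, 12 and 15 counts, and in Sox4 1 to 3 it held 235, 409 and 425. No Sox4 library came near EV, and Sox4 1 was the lowest of its group. From 0.795 ± 0.366 CPM in EV it reached 18.1 ± 5.46 CPM in Sox4, and the log2 difference was 4.48 with an SE of 0.48 (adjusted p = 1.13e-05). When a library was left out it lay between 4.15 (without EV replicate 1) and 4.77 (without EV replicate 3). Of its sequence 41.1% (as runs of 50 bases) is also found in 3 other annotated genes, Gm12854, Gm7665 and Gm29240, which had at most 5 counts in a library. How reads that map to several places were counted is not given in the sources used here, so the level of S100a11 is uncertain.

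S100a1, known for its action on calcium pumps and channels of muscle, was the member that fell most. The EV libraries 1 to 3 held 1003, 1061 and 1122 counts, against 321, 268 and 373 for Sox4 1 to 3. All Sox4 libraries lay far below EV, and the EV libraries were close together. Its mean was 79.8 ± 2.20 CPM in EV against 16.2 ± 2.61 CPM in Sox4. The log2 difference of -2.30 (adjusted p = 1.46e-06, SE 0.14) became -1.83 with library size alone. In a bulk sample fewer cells of a type and less RNA per cell cannot be told apart.

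S100a10, the partner of Anxa2, had no fixed direction. It was at 130, 95.1 and 93.3 CPM in EV 1 to 3 and at 92.5, 122 and 101 CPM in Sox4 1 to 3. The groups overlapped, with the highest value in EV 1. Sox4 minus EV was -0.01 in log2 units, with an SE of 0.19 (adjusted p = 0.958). The unscaled counts did not overlap, at 1253 to 1681 in EV and 1846 to 2381 in Sox4. With library size alone the difference was 0.46 and passed (adjusted p = 0.0326), close to the median of all genes on that scale. S100a6, a marker of proliferating and bile duct cells that binds several annexins, had 0, 0 and 1 counts in EV and 4, 1 and 7 in Sox4. Its groups overlapped, and the scaled ratio of summed counts was 8.08 (95% exact binomial interval 1.2 to 346). With no filter S100a6 did not pass (adjusted p = 0.202).

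**Figure D2:**
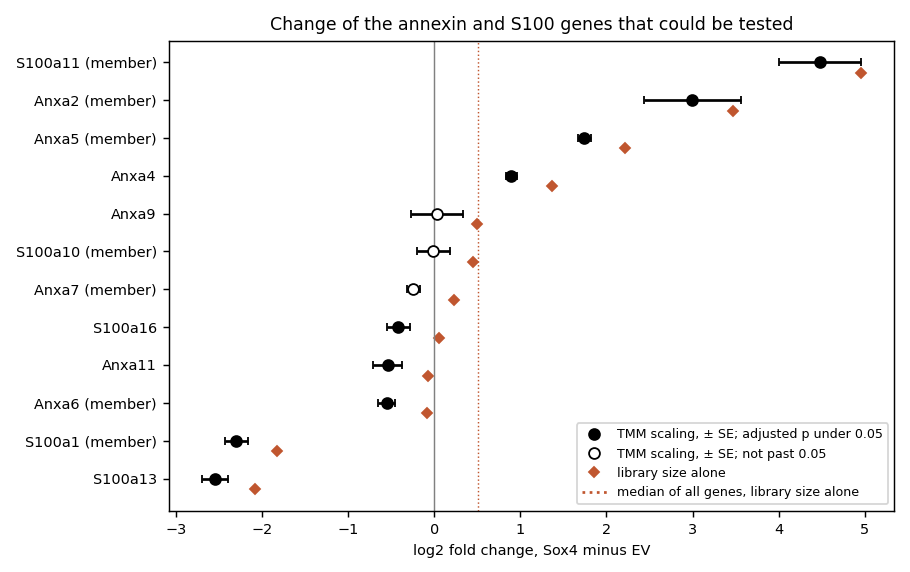
Log2 fold change (Sox4 minus EV) of the 7 tested members and the 5 tested relatives, with TMM scaling (circles, bars are ± SE, filled where the adjusted p is under 0.05) and with library size alone (diamonds). S100a11, Anxa2, Anxa5 and Anxa4 stay above 0 and S100a1 and S100a13 below 0 on both scales, while Anxa7, S100a10 and S100a16 change sign.

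Since Anxa2 and S100a10 form a single complex, their ratio within a library was compared. As a ratio of reads it does not depend on scaling. There were 0.535, 2.23 and 1.48 Anxa2 reads per 100 S100a10 reads in EV 1 to 3, and 7.91, 7.48 and 17.1 in Sox4 1 to 3. All Sox4 ratios were above all EV ratios, and Sox4 3 was again the highest. The log2 ratio was taken from log2 CPM with a prior count of 2, not from the raw reads. It therefore depends on the prior count and, through it, on the scaling. It rose by 2.93, from -6.23 ± 0.982 to -3.30 ± 0.661 (SD, n = 3). The two-sided exact permutation test gave p = 0.1, the smallest that 3 against 3 libraries can give. With a prior count of 0.5 the rise was 3.02. None of these ratios is corrected for the length of the genes.

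Levels of different genes were then set side by side per kb of annotated exons (GENCODE M21). In EV the order was S100a1 (115 CPM per kb), S100a10 (87.5), Anxa6 (56.1), Anxa5 (47.9) and Anxa7 (18.8), then S100a11 (1.56) and Anxa2 (0.375). In Sox4 it was Anxa5 (161), S100a10 (86.8), Anxa6 (38.3), S100a11 (35.4), S100a1 (23.4), Anxa7 (15.9) and Anxa2 (3.01). Anxa6 and S100a11 overlapped between Sox4 libraries, as did S100a11 and S100a1, so their order there is not set. In EV no neighbours among these 7 overlapped between libraries, and no order was tested. With the length of the longest transcript S100a10 came before S100a1 in EV (155 against 118 CPM per kb), and in Sox4 Anxa7 came before S100a1 (32.9 against 24.0) and Anxa5 lay nearer to S100a10 (165 against 154), so these orders rest on the length chosen.

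The makeup of each family shifted. Of the summed level per kb of the 12 annexin genes, Anxa5 held 31.8% to 34.7% in the EV libraries and 63.2% to 66.6% in the Sox4 libraries, and Anxa6 went from 35.1% to 41.0% in EV to 14.6% to 17.1% in Sox4. Anxa2 remained a small part, at most 1.86% in a Sox4 library. Of the 16 S100 genes listed, S100a1 held 45.3% to 53.2% in EV and 11.5% to 17.1% in Sox4, while S100a11 went from at most 0.966% to 17.0% to 25.5%. S100a10 held 34.9% to 43.5% in EV and 50.5% to 58.5% in Sox4, with no change in its own level that passed the test. Shares within a library do not depend on scaling, and these were described and not tested.

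**Figure D3:**
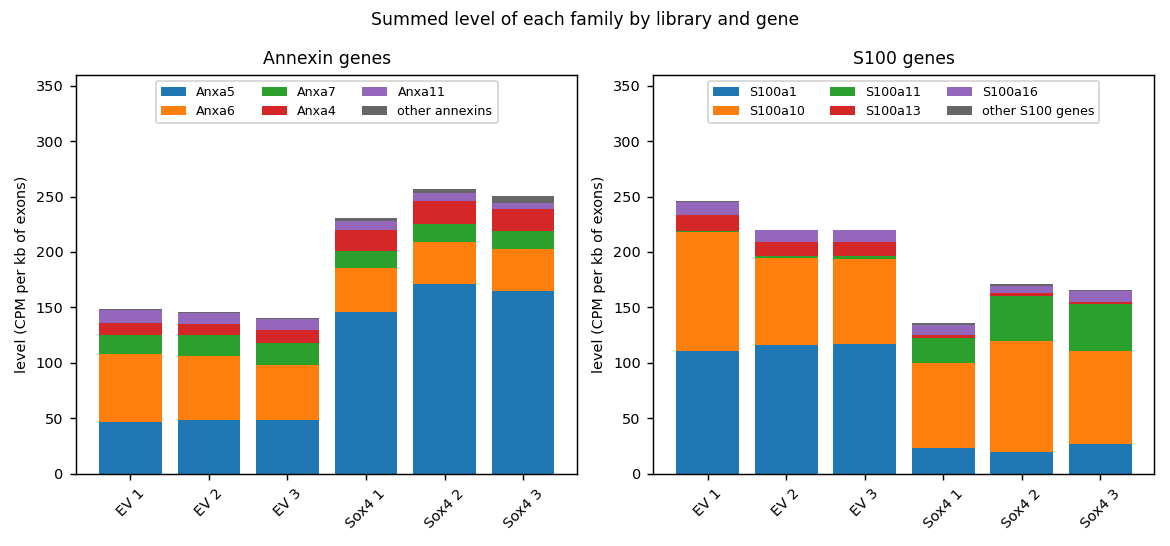
Summed level of the annexin genes (left) and the S100 genes (right) in CPM per kb of exons, by library and stacked by gene. The annexin total is 140 to 148 in EV and 230 to 257 in Sox4 with Anxa5 taking most of the difference, and in the S100 genes S100a1 shrinks while S100a11 appears.

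The rest of both families was examined next. Of 18 further annexin and S100 genes 5 could be tested, of which 1 rose and 3 fell, beside the 55.1% of all genes tested that were called (29.0% higher and 26.0% lower), and their median log2 fold change was -0.42. Anxa4, a membrane-binding annexin of epithelia, went from 49.7 ± 3.62 CPM in EV up to 92.5 ± 2.46 in Sox4, by 0.89 in log2 units (adjusted p = 7.85e-05). S100a13, which helps export proteins that lack a signal peptide, was 5.83-fold lower in Sox4, at 1.64 ± 0.281 CPM against 9.58 ± 0.856 in EV (adjusted p = 1.59e-05). Anxa11 (-0.54, adjusted p = 0.0117) and S100a16 (-0.42, adjusted p = 0.0393) fell by less, but with library size alone they were at -0.07 and 0.05 and did not pass. S100a16 also failed without any of the EV replicates (adjusted p = 0.0528 to 0.0914), without Sox4 replicate 2 (0.141) and with no filter on low counts (0.0923). Anxa9 did not pass (0.03, adjusted p = 0.961). Counts of the other 13 did not exceed 7 in any library, and Anxa10, S100a3, S100a4, S100a5, S100a7a, S100a14 and S100z had none, which by counting error alone allows up to 0.231 CPM in any library. For S100a4 this is no limit on its level, since another gene on the same strand, Gm42674, covers 51.7% of its exon bases and reads there may not have been counted for it.

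Of the S100 genes listed, 13 lie on chromosome 3, and neighbours did not share a single direction. S100a1 and S100a13 start 42 bases apart and run in opposite directions, and both fell, by 2.30 and 2.54 on the log2 scale. S100a14, S100a3, S100a4, S100a5 and S100a7a, in the same stretch, had no count. S100a11 and S100a10 lie 2.9 Mb further on and 28.8 kb from each other, yet S100a11 was 22.4-fold higher while S100a10 overlapped between groups. The annotated exons of S100a1 and S100a13 do not overlap.

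**Figure D4:**
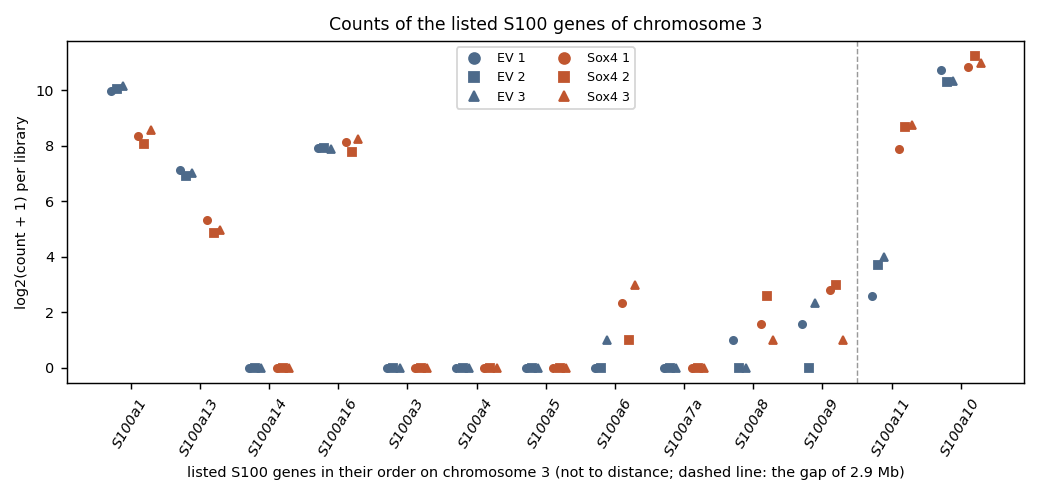
Counts per library, as log2(count + 1), of the 13 listed S100 genes of chromosome 3 in their order, EV in blue and Sox4 in orange. The neighbours S100a1 and S100a13 are both lower in Sox4, S100a11 is higher, and the unscaled counts of S100a10 beside it lie slightly higher in Sox4. With library size alone, which is not drawn, the log2 fold change of S100a10 is 0.46, beside a median of 0.51 for all genes.

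Partner genes were taken from what is known of these proteins, but the list was drawn up with earlier results of these data known. Of 19 listed 12 could be tested, with 4 higher and 4 lower, again beside 55.1% called over all genes, and the median of the 12 was 0.0027. Ahnak, a very large scaffold bound by the Anxa2 and S100a10 complex, was at 4.11 ± 0.572 CPM in EV and 19.7 ± 4.10 in Sox4, higher by 2.26 in log2 units (adjusted p = 1.80e-05). Myof, a ferlin of membrane repair, went from 0, 0 and 2 counts (EV 1 to 3) to 90, 79 and 85 (Sox4 1 to 3) (adjusted p = 3.08e-05). Plaur, the urokinase receptor, had 0 to 2 counts in EV and 14 to 17 in Sox4 (adjusted p = 0.00371). Plat, the tissue plasminogen activator, which Anxa2 and S100a10 bind together with plasminogen, had no count in EV and 11, 33 and 66 in Sox4 1 to 3, at least 8.25-fold higher than 3 counts per EV library (adjusted p = 0.00380). Without Sox4 replicate 3 this limit was 4.96-fold. The counts of Plat differed widely among the Sox4 libraries, with Sox4 3 the highest as for Anxa2.

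The partner genes that were lower included Plg, plasminogen itself, a product of hepatocytes, which was at 2878 ± 130 CPM in EV and 1470 ± 237 in Sox4 (adjusted p = 7.03e-04). Pdcd6, a calcium sensor that binds Anxa7 and Anxa11, was lower, at 36.0 ± 2.54 CPM in Sox4 and 63.1 ± 2.88 in EV (adjusted p = 1.65e-04). Sri, the Anxa7 partner sorcin (-0.43, adjusted p = 0.0167), and Ctsb, the protease cathepsin B (-0.35, adjusted p = 0.0374), were at 0.04 and 0.12 with library size alone and so have no fixed direction. Without EV replicate 3 or Sox4 replicate 2 neither of them passed, and Ctsb also failed without EV replicate 2 and with no filter on low counts. Hltf, Cacybp, Pdcd6ip and Chmp4b did not pass with TMM. With library size alone Hltf (0.76, adjusted p = 0.0016), Chmp4b (0.53, adjusted p = 0.00246) and Cacybp (0.42, adjusted p = 0.0118) passed as higher. Genes Fpr1, Fpr2, Ager, Plau, Pla2g4a, Dysf and Trpv5 were below the filter.

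Markers of other liver cells are given beside Anxa2 and S100a11, the tested members with the highest fold changes. The Kupffer, stellate and cholangiocyte sums were higher in every Sox4 library than in any EV library, and the sums of the other cell types overlapped. Of all genes tested, 29.0% were called higher and 26.0% lower, and in 33.1% every Sox4 library was above every EV library. The 10 Kupffer cell markers summed to 13.4, 25.1 and 28.8 CPM in EV 1 to 3 and to 29.1, 57.3 and 67.9 CPM in Sox4 1 to 3, and 4 of 9 tested were higher. The summed level of 10 stellate cell markers was between 8.63 and 46.9 CPM for EV, against 87.3 to 144 for Sox4, with 4 of 5 tested higher and most of the sum from Reln. Without Reln, a step chosen after the values were seen, they summed to 1.54, 5.09 and 9.37 CPM in EV 1 to 3 and to 9.92, 27.4 and 36.5 CPM in Sox4 1 to 3. In the Kupffer sum, the stellate sum without Reln, Anxa2 and S100a11, Sox4 1 was the lowest and Sox4 3 the highest of the Sox4 libraries. EV 1 was the lowest EV library in each of these, but the highest in the cholangiocyte sum. The endothelial sum, whose groups overlapped, also had Sox4 1 as the lowest and Sox4 3 as the highest Sox4 library, and EV 1 as the lowest EV library. With Reln the stellate sum was lowest in Sox4 3. For the cholangiocyte markers the sum was between 27.7 and 43.8 CPM for EV, against 72.0 to 85.0 for Sox4, where Sox4 1 was the highest and Sox4 3 the lowest, and Epcam and Spp1 were higher by the test. Of those, Krt7 and Krt19 had no count in EV and at most 9 in a Sox4 library. The sums of 8 endothelial markers overlapped (15.7 to 23.2 against 13.1 to 29.6 CPM), with Clec4g and Kdr higher and Stab2 lower by the test. The 9 neutrophil, 8 lymphoid and 5 mesothelial markers summed to at most 3.93 CPM, with Ly6g, Camp, Ms4a1 and Upk3b at 0. The part of such cells in the rise of Anxa2 and S100a11 was not tested.

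**Figure D5:**
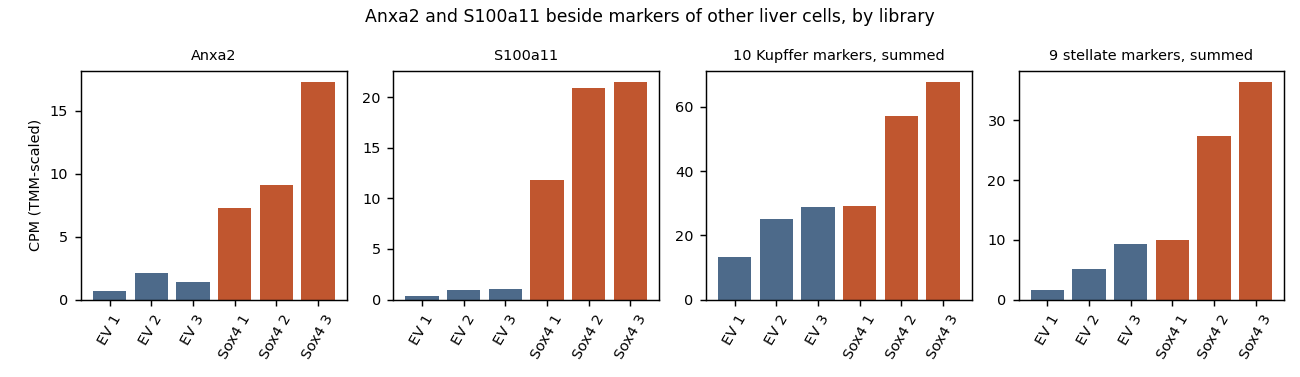
Level in CPM of Anxa2 and S100a11, and summed level of 10 Kupffer markers and of 9 stellate markers (without Reln), in the 3 EV (blue) and 3 Sox4 (orange) libraries. S100a11 is 11.8 CPM or more in each Sox4 library and 1.09 CPM or less in EV. Sox4 1 is the lowest and Sox4 3 the highest Sox4 library in all 4 panels. The endothelial sum, not drawn, has this order too, but its groups overlap. Reln was left out after the values were seen, and with it the stellate sum is lowest in Sox4 3 (87.3 CPM). The cholangiocyte sum, not drawn, is also lowest in Sox4 3 (72.0 CPM).

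The genes whose pattern over the 6 libraries was nearest to 4 of the members were found among 9024 others with a mean count of at least 100, by the root mean square distance of centred log2 CPM. Nearest to Anxa2 were Dcbld1 (distance 0.251), Jag1 (0.305) and Ccnd1 (0.308). Nearest to S100a11 were Aqp7 (0.232), Slc25a30 (0.259) and Fmo2 (0.291). Prcp (0.0339), Arhgap18 (0.0636) and Adcy6 (0.0698) were nearest to Anxa5, and Sar1b (0.0744), Zkscan5 (0.0842) and Lemd3 (0.0918) to S100a10. The distances to Anxa2 and S100a11 were larger than those to Anxa5 and S100a10, and all rest on 6 libraries in 2 groups.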

How the data were processed

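RNA-Seq libraries of hepatocytes (3 EV, 3 Sox4) were analysed from the deposited counts. Per the labels and methods, the authors aligned reads to GRCm39 with STAR 2.7.10b and used featureCounts 2.0.1 for the gene counts; annotation release, strand setting and treatment of multimapping reads are not given in the sources used here. The authors also deposited a signal table, the counts divided by DESeq2 median-of-ratios size factors, used only in 1 alternative. Library totals were 15090629 to 16964860 counts.

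In R 4.3.3, genes were kept with filterByExpr of edgeR 4.0.16 (minimum count 10, minimum total 15), leaving 12691. Libraries were scaled by TMM and compared by the edgeR quasi-likelihood test with robust dispersion and no covariate, with Benjamini-Hochberg adjustment over all genes tested. Log2 CPM used a prior count of 2. Levels at 0 carry a floor of 3 counts. The SE does not enter the test. Scripts were tested on simulated data. Library pairs of a group differed beyond counting noise (chi-square per degree of freedom 19.3 to 69.8).

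Alternatives were DESeq2 1.42.0, limma 3.58.1 with voom, limma on log2 of the deposited signal with a pseudocount of 1, DESeq2 size factors, library size alone, no filter, a mean count of at least 50, the replicate block, and leaving out each library. Exon lengths, overlaps and shared sequence came from GENCODE M21 (GRCm38) and promoters from RefSeq (GRCm38.p6), a build other than that of the counts.

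Named genes were the members, Sox4, lists of other annexin and S100 genes and of partners, and for 4 members the 3 genes nearest in pattern; genes are also named as cell type markers or shared copies. The members and lists were chosen with earlier results of these data known. Of the marker lists, 1 hepatocyte entry, Tf, was not in the table.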

Additional observations from a re-analysis of the deposited data

How the results depend on the processing

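Of 98 log2 fold changes of the 7 tested members under an alternative, 90 had the same sign and call, 1 (Anxa6 with library size alone) no longer passed and 7 changed sign. Anxa2, Anxa5, S100a11 and S100a1 held sign and call under every alternative run. With library size alone, where the median of all genes was 0.51, the members called lower went from 2 to 1 and the other annexin and S100 genes called from 4 to 2. There Anxa7 (0.23), S100a10 (0.46), S100a16 (0.051), Cacybp (0.42), Sri (0.042), Pdcd6ip (0.28) and Ctsb (0.12) changed sign, Hltf, Chmp4b and Cacybp passed as higher, and of the calls over all genes 79.9% were higher in place of 52.7%. With a mean count of at least 50, which tested fewer genes, 5 partner genes passed in place of 8. Members called were 5 to 6 when a library was left out, the sixth being Anxa3 (without EV replicate 3 or Sox4 replicate 1), as with no filter, where S100a16 and Ctsb no longer passed. S100a10 lay at 0.031 with no filter, 0.017 under the stricter count filter, and between -0.13 and 0.14 in the fits that lacked a library. Anxa9 was at -0.044 with limma-voom, -0.018 with limma on the deposited values, -7.33e-04 with the replicate block and -0.34 to 0.21 without a library. When a library was left out Cacybp lay at -0.14 to 0.017 and Chmp4b at -0.038 to 0.11. The cause was not tested.

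With the replicate block 7362 genes were called, against 6990, and 5 members were called as before. Deviations of same-numbered libraries correlated at 0.27, -0.09 and 0.13. Only EV 1, of the 3 EV libraries, correlated best with the Sox4 library of its own number. With 3 libraries per group these values cannot decide whether libraries of the same number share more than that number. Under the block Hltf passed as higher (0.30).

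With the longest transcript as length, the gain of Anxa5 among annexins was 29.9 percentage points in place of 32.2, a choice made after the values were seen, as were the hepatocyte markers with library size alone and the limit of Plat without a library. Depth limits Anxa1, Anxa3 and S100a6.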
